A study of Mus musculus with 24 samples.

Results

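Genes commonly used to recognise macrophages, 9 of the 55487 genes in the deposited table, were followed in mouse bone-marrow-derived dendritic cell cultures. They were taken by symbol: Csf1r, Adgre1, Mertk, Fcgr1, C1qa, C1qb, C1qc, Cd14 and Cd68. All 9 were among the 14535 genes abundant enough to test. The cultures were bone marrow of mice aged 8 to 10 weeks, of either sex, grown with GM-CSF at 50 ng/mL. All mice carried floxed Arpc4 on both alleles, and Arpc4 encodes one of the proteins of Arp2/3, which starts branched actin filaments. Control cultures (WT) lacked CD11c-Cre, and KO cultures carried 1 copy of it, so deletion is limited to cells that have switched on the CD11c promoter. No Cre-carrying control without floxed alleles was analysed here. Each genotype was sampled daily from day 7 to day 10 from 3 mice (numbers 63, 65 and 66 for WT, 64, 67 and 68 for KO), which gave 8 groups and 24 poly(A) RNA libraries. The design asks how differentiation of the 2 genotypes compares, with day 10 as its end point. Per the labels' protocols, cells were replated on days 4 and 7, and only floating cells were kept, with attached macrophages and granulocytes thrown away and more than 90% of the remainder positive for CD11c.

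Macrophages and dendritic cells share myeloid precursors, and cultures grown in GM-CSF are known to hold cells resembling both. CSF1R is the receptor for the growth factors CSF1 and IL-34, on which most macrophages depend. Macrophages are further known for taking up dying cells (MERTK), binding IgG (FcγRI, encoded by Fcgr1), making the complement starter C1q and sensing lipopolysaccharide with CD14. PU.1 is the transcription factor required for the myeloid lineage.

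The upstream sequences of 3 members are shown because Fcgr1 was the member called between the genotypes, and C1qb and Cd68 were among those that fell most over the days. Each run is the 250 bases before the RefSeq start (GRCm38.p6, minus strand, printed 5′ to 3′). Capitals mark GAGGAA or its reverse complement TTCCTC, the core bound by PU.1.
Fcgr1, chr3:96293970-96294219: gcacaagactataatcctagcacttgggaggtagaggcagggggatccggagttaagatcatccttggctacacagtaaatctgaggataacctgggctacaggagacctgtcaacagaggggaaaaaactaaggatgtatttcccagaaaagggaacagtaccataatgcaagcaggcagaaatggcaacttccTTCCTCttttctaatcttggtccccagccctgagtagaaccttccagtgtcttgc
C1qb, chr4:136886201-136886450: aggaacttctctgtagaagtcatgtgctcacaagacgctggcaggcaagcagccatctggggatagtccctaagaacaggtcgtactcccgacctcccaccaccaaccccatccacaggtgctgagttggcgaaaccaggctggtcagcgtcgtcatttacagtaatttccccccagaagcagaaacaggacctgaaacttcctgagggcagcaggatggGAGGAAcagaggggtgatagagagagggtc
Cd68, chr11:69666171-69666420: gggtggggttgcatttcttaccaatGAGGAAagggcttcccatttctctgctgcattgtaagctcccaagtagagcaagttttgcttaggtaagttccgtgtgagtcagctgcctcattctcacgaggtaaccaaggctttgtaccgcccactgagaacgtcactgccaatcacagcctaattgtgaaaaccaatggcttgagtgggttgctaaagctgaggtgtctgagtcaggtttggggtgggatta
Both strands were searched. The search covered 5 members (Mertk, Fcgr1, C1qb, C1qc and Cd68), of which 4 held the PU.1 core. C1qc is counted although its window overlaps an exon of its GENCODE model, which starts farther upstream. Csf1r, Adgre1, C1qa and Cd14 were not searched, and Csf1r and Cd14 were left out whether or not they had a RefSeq promoter. Of all 32851 promoter windows of this length, 23.3% held the PU.1 core. The 5 are a selection, so their share was not tested against that background. In Fcgr1 the core lay 55 to 50 bases before the start, on the reverse strand. C1qb held the core 30 to 25 bases before its start. Cd68 held the core at 225 to 220 and the C/EBP match TTGCTAAA, of the form TTGCNNAA (9.56% of windows), at 43 to 36. Neither motif matched in the Mertk window. These matches describe letters only.

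Libraries carried 19952047 to 31049798 counts, so counting error was small beside the spread between mice. Arpc4 itself was lower in every KO than in every WT library of the same day, with log2 differences of -0.19, -0.19, -0.18 and -0.28 in order of day, of which none passed the test (lowest adjusted p = 0.177). The Y-linked gene Ddx3y marked 1 KO library per day, under number 64 on days 7 and 9, 68 on day 8 and 67 on day 10, so the KO numbers cannot stand for the same animals throughout. In WT it was always number 63. On each day 1 KO library (67 on days 7, 8 and 9, 64 on day 10) stood apart in having the lowest share of counts in its 10 most counted genes, 17.2% on day 7 and 9.31% to 9.93% later. Among 13 markers of dendritic cells all were measured. Itgax, which encodes CD11c, stood at 1160 ± 137 CPM (SD, n = 3) in WT on day 7 and 1370 ± 262 on day 10, while Flt3, a growth factor receptor of conventional dendritic cells, reached only 2.1 ± 0.51 CPM in WT on day 10.

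All 9 members were detected in every library, with 37.3 CPM of Cd14 in 1 WT library of day 10 as the lowest value. Levels between genes were compared in TPM, which accounts for transcript length. In WT on day 7 the lysosomal glycoprotein gene Cd68 (chr11:69664213-69666153) led with 3720 TPM, followed by C1qb (chr4:136880129-136886187) with 1080 TPM. Csf1r (chr18:61100598-61132149), C1qc (chr4:136889804-136893065) and Adgre1 (chr17:57358691-57483527), which encodes F4/80, came next at 541, 511 and 466 TPM. The C1qc range of 468.7 to 595.6 TPM overlapped that of each of the other two, so its place is not resolved, while the Csf1r range lay above that of Adgre1. Cd14 (chr18:36725067-36726798) stood at 331 TPM, C1qa (chr4:136895917-136898803) at 198, Mertk (chr2:128698956-128802894) at 120 and Fcgr1 (chr3:96282909-96293969) at 94.8. By day 10 in WT Cd14 had moved from sixth to last place, at 78.6 TPM, just under Fcgr1 at 85.8, with overlapping ranges. Positions are of whole genes in GENCODE M21 on GRCm38. The 3 C1q genes lie side by side within 18675 bases of chromosome 4, all on the minus strand. Csf1r shares 873 exonic bases with Hmgxb3 on the other strand. The strand setting of the counting was not given in the sources used here, and Hmgxb3 held 2.6% to 5.46% as many counts as Csf1r.

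Between days 7 and 10, 6 of the 9 fell in WT, where 37% of all genes tested were called (18.1% lower). In KO 7 fell, where 36.8% of genes were called (17.1% lower). No member rose from day 7 to day 10 in either genotype. The median log2 change of the 9 was -0.51 in WT and -0.54 in KO, beside -0.015 and 0.0033 over all genes tested. Here and below, a library's value is its CPM, a count rescaled by library total and TMM factor, fold changes are log2 differences of them, and a gene is called at a Benjamini-Hochberg adjusted p under 0.05 over all genes in edgeR's quasi-likelihood test. In bulk RNA, fewer macrophage-like cells and less RNA per cell cannot be told apart. Cells were replated on day 7, and the part of replating in the changes from that day was not tested.

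**Figure D1:**
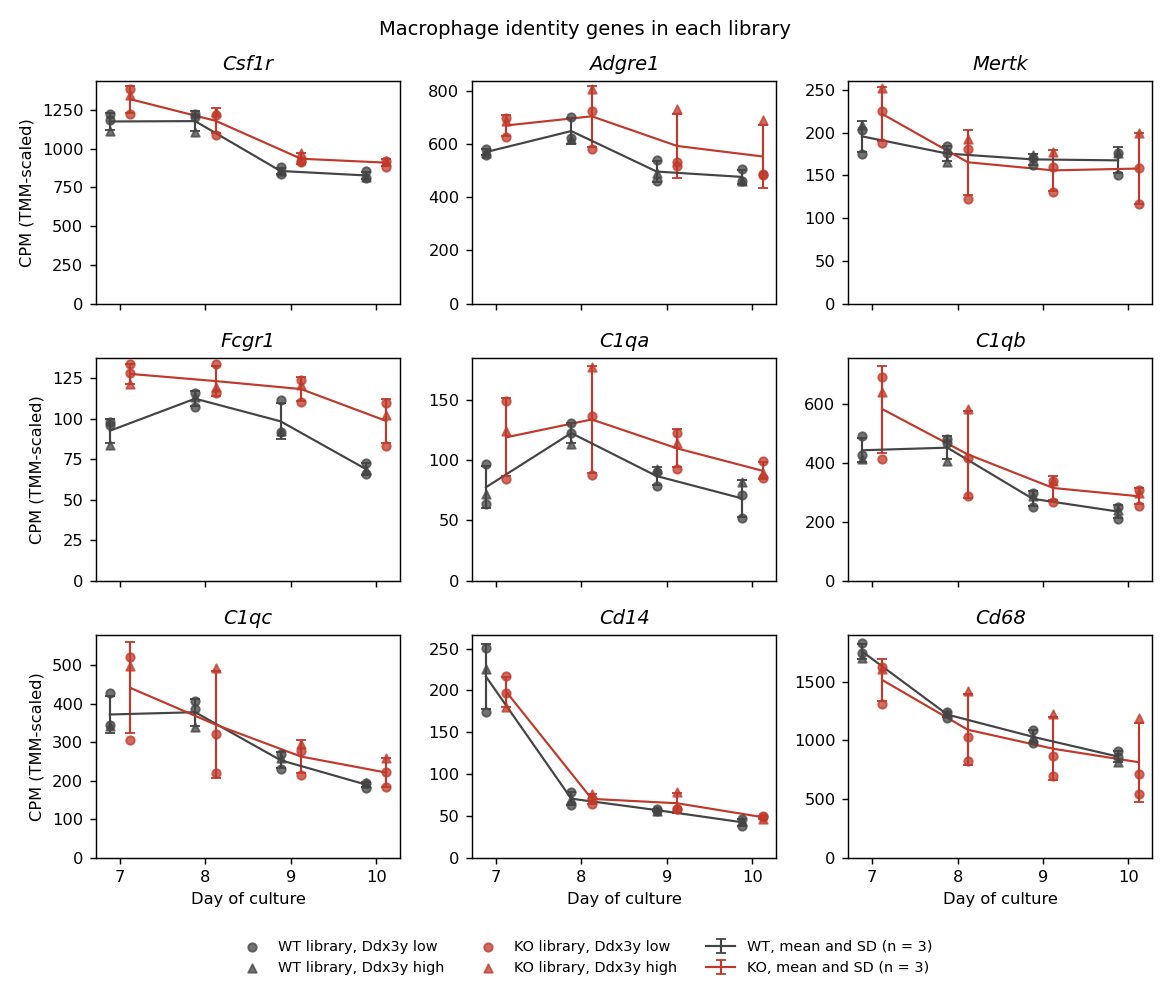
Each panel plots 1 gene, with day of culture on the x axis and TMM-scaled CPM on the y axis. Points are libraries (triangles have high Ddx3y), lines join group means and bars show SD (n = 3). Cd14 drops between days 7 and 8 in both genotypes, from a mean of 217 to 70.4 CPM in WT, and the 3 KO libraries spread widely for Cd68.

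Cd14, which hands lipopolysaccharide to TLR4, fell most. In WT the 3 mice stood at 225, 174 and 250 CPM on day 7 and at 43.8, 37.3 and 45.5 CPM on day 10. The KO libraries stood at 181, 197 and 217 CPM on day 7 and at 49.6, 46.5 and 48.8 CPM on day 10. The ranges of the days lay far apart in both genotypes. The log2 change from day 7 to day 10 was -2.36 (SE 0.13, adjusted p = 2.25e-10) in WT and -2.04 (SE 0.13, adjusted p = 1.72e-09) in KO. Most of it fell in the first day, with -1.62 in WT (adjusted p = 7.77e-09) and -1.50 in KO (adjusted p = 2.34e-08), in a step where 43.4% and 42% of all genes were called. Cd14 kept its call in both of these comparisons and both genotypes under all 19 alternatives tried.

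Cd68, the most abundant member, fell by 51% in WT and fell by 46.3% in KO. The WT libraries ran from 1706 to 1834 CPM on day 7 and from 812 to 912 CPM on day 10, with a log2 change of -1.03 (SE 0.23, adjusted p = 0.00128). The KO libraries stood at 1611, 1311 and 1626 CPM on day 7 and at 543, 1190 and 710 CPM on day 10, a log2 change of -0.90 (SE 0.23, adjusted p = 0.00388). One KO library on day 10, number 67, thus came near the day 7 level, though the days did not overlap. The KO fall was no longer called in 4 of 19 alternatives. These left out number 64 or number 68, fitted only the groups compared, or required a log2 change of at least 1.

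C1q is built from 3 chains, and its genes are described in turn. C1qb stood at 413 to 489 CPM in WT on day 7 and at 211 to 251 CPM on day 10, a log2 change of -0.92 (SE 0.2, adjusted p = 0.00101). C1qc fell from 343 to 429 CPM on day 7 to 181 to 195 CPM on day 10, by -0.97 (SE 0.22, adjusted p = 0.0018), and this call was lost without mouse 65. In KO the falls were -1.02 for C1qb (adjusted p = 0.000426) and -0.999 for C1qc (adjusted p = 0.00149), the latter lost without number 64. C1qa was not called from day 7 to day 10 in either genotype. Its WT libraries stood at 71.7, 97.1 and 63.5 CPM on day 7, at 114, 131 and 123 CPM on day 8, and at 81.7, 51.8 and 71.1 CPM on day 10. C1qa thus rose from day 7 to day 8 in WT, by 0.66 (SE 0.22, adjusted p = 0.0203), with no overlap, a call lost without mouse 63 or 66. From day 7 to day 10 its change was -0.18 in WT (adjusted p = 0.561), positive at 0.10 on the TPM scale, and -0.38 in KO (adjusted p = 0.184), where it was called without number 67 (-0.57, adjusted p = 0.0238). From day 8 to day 9 in WT C1qb was called, at -0.70 (adjusted p = 0.0402), where 5.4% of genes were called (2.34% lower), and that call was lost without any 1 of the 3 WT mice. With only the groups compared all 3 were called.

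In CPM, Csf1r held its level on day 8 in WT and then stepped down. On both TPM scales it was called higher on day 8 than on day 7 in WT, with means of 541 and 634 TPM. The WT libraries stood at 1117, 1223 and 1188 CPM on day 7, at 1106, 1225 and 1204 CPM on day 8, at 853, 879 and 837 CPM on day 9 and at 818, 810 and 855 CPM on day 10. Days 7 and 8 overlapped, and both lay above days 9 and 10. Csf1r fell by -0.46 from day 8 to day 9 in WT (SE 0.072, adjusted p = 0.00137; lost without mouse 65 or 66). In KO the same step was -0.34 (adjusted p = 0.0192), where 2.33% of genes were called (1.02% lower), and was lost in 7 of the 19 alternatives, among them leaving out number 65, 66, 64 or 68. From day 7 to day 10 it fell by -0.51 in WT (adjusted p = 1.94e-05) and by -0.54 in KO (adjusted p = 1.2e-05), and both calls were kept under every left-out mouse.

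Fcgr1 followed another course, up and then down in WT. Its 3 WT libraries stood at 83.9, 97.7 and 96 CPM on day 7, at 114, 116 and 108 CPM on day 8, at 92.3, 111 and 91.6 CPM on day 9 and at 68.3, 65.7 and 72.6 CPM on day 10. The day 8 values all lay above those of day 7, and the day 10 values below those of every other day. The rise to day 8 was 0.28 (SE 0.095, adjusted p = 0.0216; lost without mouse 63), and 0.51 on the TPM scale (adjusted p = 0.000641). The fall from day 9 to day 10 was -0.52 (adjusted p = 0.00624; lost without mouse 63 or 65), in a step where 3.6% of genes were called (2.42% lower). With the mouse as a block Cd14 was called too in that step, which made 2 members. In KO Fcgr1 ran at 121 to 134 CPM on day 7 and 83.3 to 110 CPM on day 10, a fall of -0.37 (SE 0.095, adjusted p = 0.00422; lost without number 68). The day 10 against day 7 falls of Fcgr1 were -0.14 in WT (adjusted p = 0.294) and -0.07 in KO (adjusted p = 0.577) on the TPM scale, where neither was called.

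From day 7 to day 10, Adgre1 was called in neither genotype, and Mertk only in KO. Adgre1, whose product F4/80 is the classic mouse macrophage antigen, ran at 558 to 581 CPM in WT on day 7 and at 460 to 506 CPM on day 10. Between them, WT ran at 618 to 702 CPM on day 8 (0.19, adjusted p = 0.296) and 459 to 538 CPM on day 9 (-0.39, adjusted p = 0.108). Neither step overlapped, and both were called with only the groups compared, the rise also on both TPM scales. The change from day 7 to day 10 was -0.26 in WT (adjusted p = 0.159) and -0.28 in KO (adjusted p = 0.132), both slightly positive on the TPM scale, at 0.02 and 0.01. Adgre1 was called lower in WT with only the groups compared (adjusted p = 0.0265) and without the KO libraries of high Ddx3y (0.024). In KO it was called lower without those libraries (-0.44, adjusted p = 0.00302) and without number 67 (-0.52, adjusted p = 0.00224). Mertk, a receptor tyrosine kinase for dying cells, stood at 209, 203 and 175 CPM in WT on day 7 and at 177, 176 and 150 CPM on day 10, so the days overlapped. Its WT change was -0.22 (adjusted p = 0.321), and 0.06 on the TPM scale. In KO Mertk was called lower, by -0.49 (SE 0.17, adjusted p = 0.0284), with 252, 189 and 225 CPM on day 7 and 117, 199 and 158 CPM on day 10. On the TPM scale the KO change was -0.205 (adjusted p = 0.226). The day ranges overlapped, and the call was lost in 9 of 19 alternatives, among them both TPM scales and leaving out any 1 of numbers 63, 65, 66, 64 and 68. Mertk in KO from day 7 to day 8 passed narrowly at -0.42 (adjusted p = 0.0497, with 20.9% of genes lower in that step), lost in 11 of 19 alternatives. With the labelled number as a block its adjusted p there was 0.0597, and C1qb was called in its place, though KO numbers do not follow single animals.

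The size of these falls depended on the scale. On the TPM scale the median change of all genes from day 7 to day 10 rose to 0.26 in WT and 0.3 in KO. Against that shift, the WT and KO changes on the TPM scale were -0.22 and -0.23 for Csf1r, -0.63 and -0.69 for C1qb, and -2.05 and -1.72 for Cd14, all still called. In the step from day 9 to day 10 no member was called in KO, where 0.0963% of genes were, and 2 had an unadjusted p under 0.05, as did 12% of all genes. Without number 67, 3 were called there (Adgre1, C1qc and Cd68), and no member was called by DESeq2.

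Markers of dendritic cells moved the other way. The summed level of the 13 markers ran from 2470 to 3070 CPM in WT on day 7 and from 5430 to 7250 CPM on day 10, and in KO from 2760 to 3430 CPM and from 4870 to 8320 CPM. From day 7 to day 10, 8 of 13 rose in WT with 1 lower, and 9 of 13 rose in KO with 0 lower. Of all genes tested, 37% were called in WT (18.1% lower) and 36.8% in KO (17.1% lower). The same shares apply to the counts of the other cell types below. Zbtb46, a transcription factor of conventional dendritic cells, rose by 2.04 (SE 0.48, adjusted p = 0.00228) in WT. The MHC class II gene H2-Ab1 rose by 1.69 (SE 0.37, adjusted p = 0.00123). Markers of other cell types were measured as well. The 7 monocyte markers summed to 2910 to 3840 CPM in WT on day 7 and 2230 to 3520 CPM on day 10, with 2 called higher and 1 lower. In KO they summed to 3840 to 4480 CPM and 1900 to 2990 CPM on the same days, with 1 higher and 2 lower. The 12 neutrophil and precursor markers ran at 3200 to 4790 CPM in WT on day 7 and at 5460 to 7340 CPM on day 10, with 5 higher and 1 lower, and in KO at 3830 to 7370 CPM and 4760 to 6210 CPM, with 0 higher and 2 lower. Osteoclasts also carry Csf1r, and their 7 markers summed to 329 to 450 CPM in WT on day 7 and 195 to 225 CPM on day 10, with 1 called higher and 3 lower of the 5 tested. In KO they ran at 282 to 442 CPM on day 7 and 117 to 271 CPM on day 10, with 1 higher and 2 lower. The 8 mast cell and basophil markers summed to at most 257 CPM in any library, the 8 T and NK cell markers to at most 11.3 CPM, the 6 B and plasma cell markers to at most 8.91 CPM and the 5 erythroid markers to at most 1.29 CPM. Calcr of the osteoclast, Gzma of the T and NK cell and Alas2 of the erythroid list were at 0 in every library. The part of these cells in the members' falls was not tested.

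**Figure D2:**
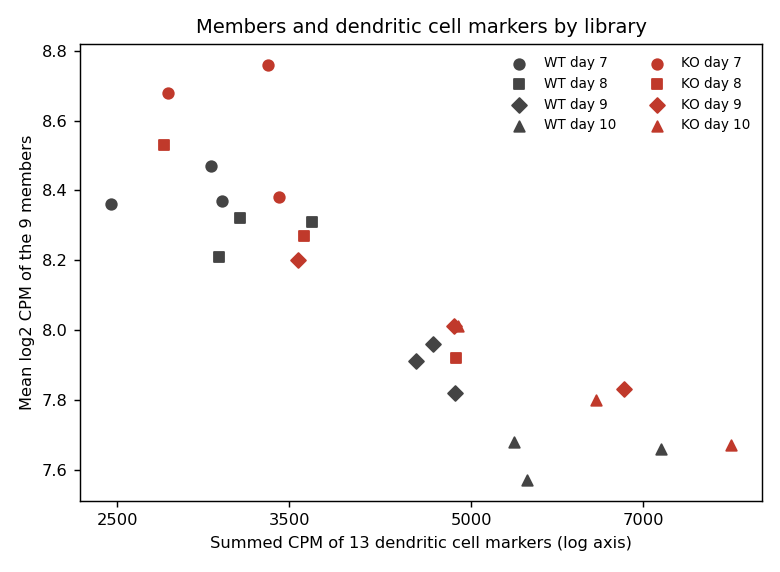
Each point is 1 library, with the summed CPM of 13 dendritic cell markers on a log x axis and the mean log2 CPM of the 9 members on the y axis. Colour gives genotype and shape gives the day. Day 7 libraries lie at 8.36 to 8.76 and day 10 libraries at 7.57 to 8.01 on the y axis.

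Between the genotypes 1 call was made among the macrophage genes, that of Fcgr1 on day 7. On day 7, 1 of the 9 members was called (higher in KO) while 1.45% of all genes were called, 0.832% higher. On days 8, 9 and 10 none was called, against 0.00688%, 0.00688% and 0.0138% of all genes, and the numbers of members with an unadjusted p under 0.05 were 3, 0, 1 and 1 on the 4 days, beside 15.7%, 5.91%, 8.15% and 7.3% of all genes. DESeq2's Wald test also called none on days 8 and 9, and called Fcgr1 on day 10. All 4 tests of whether a day change differed between the genotypes called none of the 9, with 0.0275%, 0%, 0% and 0.0619% of all genes called. In those tests 1 member had an unadjusted p under 0.05, in the step from day 7 to day 8, as did 4.71% of all genes, and DESeq2 called none. The members' differences of change for days 7 to 10 (KO change minus WT change) ran from -0.27 to 0.32.

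Fcgr1, the high-affinity receptor for IgG, was 1.38-fold higher in KO on day 7. The 3 KO libraries stood at 121, 128 and 134 CPM and the WT libraries at 83.9, 97.7 and 96 CPM, with a clear gap. The log2 difference was 0.47 (SE 0.095, 95% interval 0.26 to 0.67, adjusted p = 0.0204). On day 8 the groups nearly met, at 116 to 134 CPM in KO and 108 to 116 CPM in WT, and the difference was 0.13 (interval -0.07 to 0.33). On day 9 KO ran at 110 to 124 CPM and WT at 91.6 to 111 CPM, overlapping, with a difference of 0.27 (interval 0.06 to 0.47, adjusted p = 0.398). On day 10 KO ran at 83.3 to 110 CPM and WT at 65.7 to 72.6 CPM, again apart, with a difference of 0.52 (interval 0.32 to 0.72, adjusted p = 0.105). The day 10 difference was thus no smaller than that of day 7, but few genes passed on that day. It was called by DESeq2, with no filter on low counts, on both TPM scales and without number 68 (adjusted p from 0.00118 to 1 over all alternatives).

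The day 7 call of Fcgr1 depended on every WT mouse. It was lost without mouse 63 (adjusted p = 0.16), 65 (0.0767) or 66 (0.121), without number 67 (0.0531), and with a required log2 change of at least 1. The log2 difference itself stayed between 0.40 and 0.53 in all 18 alternatives. It was 0.47 (adjusted p = 0.0167) with sex, read from Ddx3y, as a covariate. Beside it, the 7 monocyte markers summed to 3840 to 4480 CPM in KO and 2910 to 3840 CPM in WT on day 7. Of the 7, 1 was called higher, where 1.45% of all genes were called (0.832% higher). The 12 neutrophil and precursor markers ran at 3830 to 7370 CPM in KO and 3200 to 4790 CPM in WT, with none called. Dendritic cell markers summed to 2760 to 3430 CPM in KO and 2470 to 3070 CPM in WT, and mast cell and basophil markers to 88.1 to 257 CPM and 80.7 to 102 CPM, with none called. Osteoclast markers summed to 282 to 442 CPM in KO and 329 to 450 CPM in WT, with 1 of 5 tested called lower. Of these lists only Calcr was at 0. Their part in the difference was not tested.

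**Figure D3:**
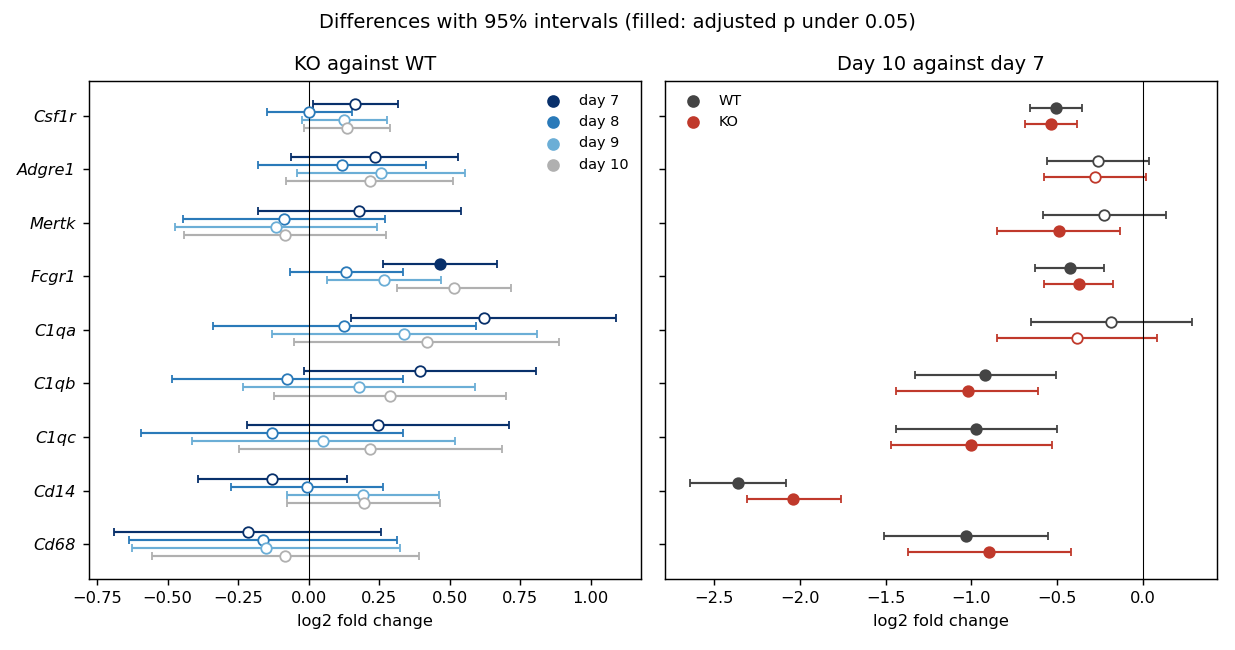
Points are log2 fold changes and bars are 95% intervals, with the 9 genes on the y axis. The left panel compares KO with WT on each day and the right panel day 10 with day 7 in each genotype, and filled points were called. On the left only Fcgr1 on day 7, at 0.47, is filled.

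The other 8 members were not called between the genotypes. On day 7 the differences were 0.62 for C1qa (interval 0.15 to 1.09, adjusted p = 0.173), 0.40 for C1qb (interval -0.02 to 0.81) and 0.25 for C1qc (interval -0.22 to 0.71). The C1qa values in KO were 124, 84.3 and 149 CPM, and those in WT 71.7, 97.1 and 63.5 CPM, so the groups overlapped through number 67. Leaving out number 67 on every day called C1qa (0.84, adjusted p = 0.0353) and C1qb (0.61, adjusted p = 0.0405) but not Fcgr1. Leaving out only the KO library with the lowest top-gene share on each day, a choice made after seeing the data, called 3 members on day 7: Fcgr1 (adjusted p = 0.0488), C1qa (0.0409) and C1qb (0.0391). Csf1r differed by 0.17 on day 7 (interval 0.01 to 0.32, adjusted p = 0.263), with 1350, 1222 and 1388 CPM in KO. Adgre1 differed by 0.23 (interval -0.06 to 0.53, adjusted p = 0.435), with 624 to 696 CPM in KO lying wholly above WT. Cd68 ran the other way on day 7, at -0.22 (interval -0.69 to 0.26, adjusted p = 0.685), and Cd14 at -0.13 (interval -0.39 to 0.13, adjusted p = 0.664). Mertk differed by 0.18 (interval -0.18 to 0.54). Over the 18 alternatives the day 7 differences ran from 0.11 to 0.47 for C1qc, from 0.09 to 0.30 for Mertk, from -0.26 to -0.0025 for Cd14 and from -0.27 to -0.10 for Cd68, and none of these was called.

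By separation alone, 2 members lay wholly higher in KO on day 7 (Adgre1 and Fcgr1), as did 11.9% of all genes, and 1 lay wholly lower (Cd68), as did 14.2%. On day 10, 5 lay wholly higher (Csf1r, Fcgr1, C1qa, C1qb and Cd14), as did 5.47% of all genes, and none wholly lower, as 4.97% did. On day 8 it was 1 member (Fcgr1, by a margin under rounding) and on day 9 also 1 (Csf1r), with backgrounds of 4.4% and 7.62%. On day 10 Csf1r stood at 883, 923 and 923 CPM in KO and at 818, 810 and 855 CPM in WT. Its difference was small, 0.14 (interval -0.02 to 0.29, adjusted p = 0.712). C1qa stood at 85.3, 88.9 and 99.3 CPM in KO and 81.7, 51.8 and 71.1 CPM in WT on day 10, a difference of 0.42 (interval -0.05 to 0.89, adjusted p = 0.713).

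Within C1q, the C1qa chain took a larger share of the transcripts from day 8 on. Its share of the summed TPM of the 3 genes was 11% ± 1.26 (SD, n = 3) in WT on day 7, then 16.2% ± 0.765, 17.8% ± 0.494 and 17.2% ± 2.42 on days 8, 9 and 10. In KO it was 13.0% ± 0.652, 18.4% ± 0.81, 19.9% ± 0.788 and 18.9% ± 1.4. The 6 libraries of day 7 ran from 9.69% to 13.6% and the 6 of day 8 from 15.3% to 19.3%, without overlap. The rise was 5.31 points (two-sided exact permutation test over 6 and 6 libraries, p = 0.0022, adjusted p = 0.0066 over 3 steps). The step to day 9 was 1.53 points (exact p = 0.08, and 0.048 without number 64) and that to day 10 was -0.80 points (exact p = 0.44). The share was examined after the data were seen, and WT libraries of both days come from the same 3 mice, so the libraries are not wholly independent. KO numbers do not follow single animals. Over counts in place of TPM the first step was 4.35 points. Library kits of 2 kinds were used, with no record of which library had which, so their part in a change of share was not tested.

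The C1qa share was also higher in KO than in WT on each day, by 2.06, 2.22, 2.13 and 1.75 points. On days 7, 8 and 9 every KO library exceeded every WT library, as with 17.7% to 19.3% against 15.3% to 16.7% on day 8. On day 10 they overlapped. With 3 against 3 the exact permutation test cannot go below p = 0.1, which it gave on days 7, 8 and 9, and it gave 0.3 on day 10. C1qb and C1qc kept closer together, their TPM ratio running from 1.91 to 2.47 over the 24 libraries.

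**Figure D4:**
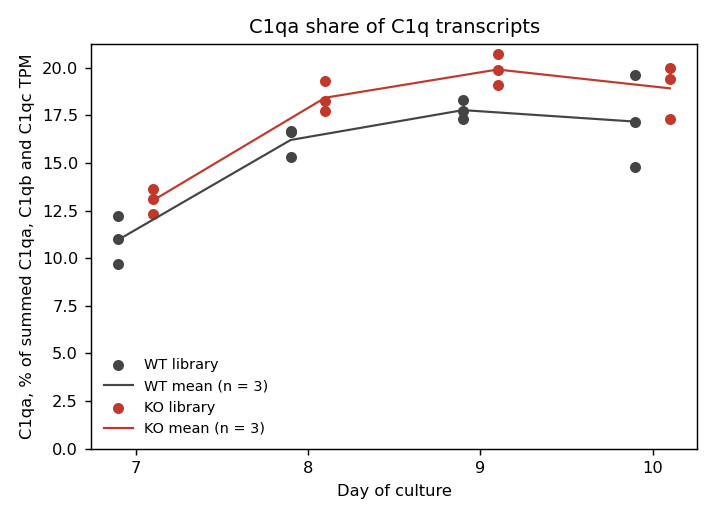
The y axis gives C1qa as a percentage of the summed TPM of C1qa, C1qb and C1qc, and the x axis the day of culture. Points are libraries and lines join group means (n = 3). Day 7 libraries lie between 9.69% and 13.6%, below all libraries of day 8, and KO means lie above WT means on each day.

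Spread among libraries was larger in KO than in WT for most members and most genes. The coefficient of variation was larger in KO for 7, 8, 8 and 6 of the 9 members on days 7 to 10, with medians of 11.6%, 23%, 15.4% and 13.9% in KO and 9.23%, 7.02%, 7.94% and 5.78% in WT. Over all genes tested it was larger in KO for 62.5%, 67.9%, 58.2% and 59.8% on the same days. The KO library with high Ddx3y was the highest of its 3 for 1, 8, 7 and 5 members on the 4 days, and in WT for 1, 0, 2 and 3. It was the lowest for 2, 0, 0 and 1 members in KO, and in WT for 5, 6, 0 and 2. On each day the KO library with the lowest top-gene share had the lowest mean over the members and the highest dendritic cell sum of its 3. On day 10, number 64 had a mean of 7.67 log2 CPM over the members and a dendritic cell sum of 8320 CPM, and number 67 had 8.01 and 4870 CPM. Single members could differ, as number 64 was then the highest of its 3 for Fcgr1 (110 CPM) and Cd14 (49.65 CPM). The part of sex or cell make-up in this spread was not tested. Adgre1 showed it in KO on day 9, at 729, 517 and 530 CPM, and on day 10, at 488, 688 and 481 CPM.

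With group means removed, 7 of the members varied together from library to library, with Fcgr1 and Cd14 apart. In this form Pearson's r over the 24 libraries was 0.973 between C1qb and C1qc, 0.912 between C1qa and C1qb and 0.904 between Adgre1 and Cd68. Over the 21 pairs among the 7 members it ran from 0.393 to 0.973. Over the 8 pairs of Fcgr1 it ran from -0.20 to 0.30, and over the 8 pairs of Cd14 from -0.07 to 0.21. With group means kept, r reached 0.705 for Fcgr1 and 0.798 for Cd14. These points share libraries and their scaling, and are a description. With group means removed, r was not computed for other genes, so no background stands beside these values.

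Among other genes of the members' pathways, more were called lower than higher from day 7 to day 10. Of 17 tested ligands, co-receptors and signalling partners, 1 rose and 9 fell in WT from day 7 to day 10, and 2 rose and 11 fell in KO. Their median log2 changes were -0.50 and -0.55. Over all genes tested, 37% were called in WT (18.1% lower) and 36.8% in KO (17.1% lower). Fcgr4, a receptor for IgG2 antibodies, fell from 150 ± 12.3 to 31.3 ± 5.92 CPM in WT, by -2.26 (SE 0.29, adjusted p = 6.23e-06). Adgre5, which encodes CD97 and is a relative of Adgre1, fell by -1.21 (adjusted p = 1.62e-06). Gas6, a bridge between MERTK and dying cells, fell by -1.05 (adjusted p = 0.00952), a call lost without any 1 of the WT mice. Tyro3, a receptor of the MERTK family, rose from 3.39 ± 0.863 to 10.2 ± 2.6 CPM, by 1.60 (SE 0.29, adjusted p = 0.000262).

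Of 11 complement genes tested, 1 rose and 4 fell in WT, and 2 rose and 3 fell in KO, 5 called in each genotype where 37% and 36.8% of all genes were. The anaphylatoxin receptor genes fell in WT, C5ar1 by -1.51 (SE 0.21, adjusted p = 1.51e-05) and C3ar1 by -0.85 (adjusted p = 0.00582; lost without mouse 66). C1ra, a protease that pairs with C1q, fell by -0.68 (adjusted p = 0.000607). Cfp, which encodes properdin, the stabiliser of the alternative pathway, rose from 322 ± 17.3 to 590 ± 70.6 CPM in WT, by 0.87 (SE 0.082, adjusted p = 2.29e-07). Cfp was also the only gene of the 4 companion lists called between the genotypes on day 7. The KO mean there was 514 ± 4.12 CPM, a difference of 0.67 (SE 0.082, adjusted p = 0.000209). No gene of these lists was called between the genotypes on the other days.

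Among 12 transcription factors of macrophages, 1 rose and 6 fell in WT, and 2 rose and 6 fell in KO. In the same comparisons 37% of all genes were called in WT (18.1% lower) and 36.8% in KO (17.1% lower). Irf8, a factor of monocyte and dendritic cell development, fell by -0.80 in WT (adjusted p = 1.84e-07). Egr2 fell by -0.78 in WT (adjusted p = 0.00428; lost without mouse 63 or 66), while in KO its change was -0.0022 (adjusted p = 0.995). The difference between its changes (KO minus WT) was 0.78 (adjusted p = 0.629), and none of the 12 was called in that test. Klf4, a factor of monocyte development, rose by 0.90 in WT (adjusted p = 0.000741).

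Of 36 further macrophage-associated genes tested, 3 rose and 20 fell in WT, and 2 rose and 22 fell in KO, with median changes of -0.67 and -0.64. Calls over all genes were again 37% in WT (18.1% lower) and 36.8% in KO (17.1% lower). Cx3cr1, the fractalkine receptor, fell from 5.45 ± 0.365 to 1.14 ± 0.413 CPM in WT, by -2.24 (SE 0.44, adjusted p = 0.000484). The selenium carrier gene Selenop fell by -1.97 (adjusted p = 2.38e-06) and the haem-degrading enzyme gene Hmox1 by -1.49 (adjusted p = 0.000249). Mrc1, the mannose receptor, rose from 348 ± 13.8 to 543 ± 16.5 CPM in WT, by 0.64 (SE 0.16, adjusted p = 0.003). The adaptor gene Dok3 rose by 1.13 (adjusted p = 3.66e-05). The scavenger receptor gene Marco rose by 1.64 in WT (adjusted p = 0.0174), lost without mouse 63 or 66 and with the mouse as a random block (adjusted p = 0.0777).

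Among 8946 genes, those most like each member over the 24 libraries were picked by Pearson's r of log2 CPM. Cd68 was followed most closely by Lamp1 (r = 0.983), a lysosomal membrane protein gene, and Hmox1 (0.977). Cd14 was followed by Ifnar2 (0.955) and Irak2 (0.953), and Csf1r by Rnf19b (0.952) and Tnfaip3 (0.946). Mertk was most like Slc35f5 (0.912) and Ndst1 (0.895), and Adgre1 like Kcnk13 (0.907) and Tlr1 (0.906). The mean of the 3 C1q genes was most like C5ar1 (0.889) and Mmp14 (0.885). Fcgr1 had the loosest companions, the interferon-stimulated genes Bst2 (0.837) and Epsti1 (0.834). Bst2 stood in WT at 98.9, 126, 104 and 90.9 CPM on days 7 to 10, with 114, 133, 126 and 102 CPM in KO. The libraries share days, mice and scaling, so these values describe shape only.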

How the data were processed

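The authors deposited raw counts per gene (whole numbers, not normalized) and TPM per gene for 24 libraries, with a table of symbols. The submitters' processing notes name FastQC 0.11.9, STAR 2.6.1, DESeq2 1.22.2 and mm10, without saying how each was used. Counts were fitted with edgeR 4.0.16 (R 4.3.3): filterByExpr over the 8 groups, TMM factors, 1 coefficient per group, quasi-likelihood tests with 16 residual degrees of freedom, two-sided, Benjamini-Hochberg adjusted over 14535 genes. CPM values are TMM-scaled. The deposited TPM served for levels between genes and for shares. Each interval is 95%, on 16 degrees of freedom. Counts are PCR-amplified reads without molecular identifiers.

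The members, gene lists and tests were chosen with earlier results of these data known. All members are named. From each companion list, genes called for KO against WT on day 7 or WT day 10 against day 7, with an average log2 CPM above 1, were named, up to 3 per direction by size of change. For likeness the 2 genes of highest Pearson r with an average log2 CPM above 3 were named, without predicted genes. One gene that this rule names is not reported here. Of 55487 identifiers, 55094 had the same version in GENCODE M21.

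Groups and mouse numbers come from the labels. Over 11111 genes, same-numbered WT libraries deviated together from their group means (mean r = 0.49, lowest 0.149), while KO numbers did not (mean -0.0048). No 2 libraries of a group agreed within sampling noise (chi-square per degree of freedom 7.26 to 132). Simulated counts for KO against WT on day 7 with known changes were recovered at 58.2% (1.5-fold), 82.1% (2-fold) and 98.5% (4-fold). Only genes with more than 50 counts on average were changed, and 10 unchanged genes were called as well. Alternatives were DESeq2 size factors, DESeq2 1.42.0, no filter on low counts, at least 50 counts on average, only the groups compared, a log2 change of at least 1, limma 3.58.1 trend on log2(TPM + 1) and log2(TPM + 0.1), each mouse left out, KO libraries of high Ddx3y left out, sex from Ddx3y as covariate, and the labelled mouse number as a random or fixed block. Leaving out the KO library of lowest top-gene share on each day was added after seeing the data.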

Additional observations from a re-analysis of the deposited data

How the results depend on the processing

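Falls from day 7 to day 10 that were called as reported kept their direction under every alternative run. Of the results for single genes under alternatives, 1087 were the same, 82 lost and 14 gained a call, and 14 reversed. Those that reversed had not been called as reported: on TPM scales the WT changes became 0.0238 (Adgre1), 0.059 or 0.0594 (Mertk) and 0.098 or 0.0984 (C1qa), and the KO change of Adgre1 0.0116. The C1qa change in WT ran from -0.385 to 0.184 with 1 mouse left out, highest without mouse 65. On day 10, KO against WT ran from -0.281 to 0.112 (Mertk) and from -0.456 to 0.16 (Cd68) with 1 mouse left out, positive without number 64 and, for Cd68 at 0.00744, without number 68. It was 0.107 (Mertk) and 0.154 (Cd68) without the KO libraries of lowest top-gene share. The cause was not tested.

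Counts of members called moved as follows. A required log2 change of at least 1 left 0 for KO against WT on day 7, 1 for WT and 1 for KO from day 7 to 8, 0 for WT and 0 for KO from day 8 to 9, 0 for WT from day 9 to 10, and 2 for WT and 2 for KO from day 7 to 10. KO against WT on day 10 became 1 with DESeq2, with no filter and on both TPM scales. With only the groups compared, WT steps gave 5, 7 and 3, and KO gave 1 (day 7 to 8) and 0 (day 8 to 9). Both TPM scales gave 5 for WT from day 7 to 8. DESeq2 and no filter gave 2 for WT from day 9 to 10. DESeq2 size factors gave 1 for KO from day 7 to 8, and no filter 0 for KO from day 8 to 9.

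Leaving out libraries gave 0 to 3 members for KO against WT on day 7, 0 to 1 on day 10 and 0 on days 8 and 9. WT steps gave 1 to 4, 0 to 5 and 0 to 2, KO steps 1 to 5, 0 to 2 and 0 to 3, and day 7 to 10 gave 5 to 7 in WT and 4 to 9 in KO. Over all alternatives, those leaving out libraries included, all genes called for KO against WT on day 7 ranged from 11 to 837 (211 as reported), on days 8, 9 and 10 from 1 to 282, 1 to 98 and 1 to 80 (1, 1 and 2 as reported). From day 7 to 10 they ranged from 1738 to 6924 in WT (5376) and from 1635 to 7499 in KO (5353). Steps ranged in WT from 1695 to 7571 (6315), 17 to 2123 (785) and 0 to 1151 (523), and in KO from 1534 to 6749 (6110), 0 to 1099 (338) and 0 to 2099 (14). Tests of a genotype difference in change ranged from 0 to 24 (4) for day 7 to 8 and 0 to 39 (9) for day 7 to 10.

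With the labelled mouse number as a replicate block, WT from day 9 to 10 gave 2 members. In KO, whose numbers do not follow single animals, Mertk from day 7 to 8 had a change of -0.432 (adjusted p = 0.0597), and Marco in WT from day 7 to 10 had 1.53 (adjusted p = 0.0777). The block lost no other call named here. The fixed block could not be fitted for KO against WT.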
